A study of Mus musculus with 7 samples.

Results

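The cadherins and protocadherins are calcium-dependent adhesion proteins of the cell surface, and 94 of the 24047 genes in the count table belong to them by name: every gene whose symbol is Cdh followed by a digit or starts with Pcdh. They were followed in SMB21, a mouse medulloblastoma cell line grown as neurospheres, with labels that give a Ptch mutant genotype, the strain background Ptch1tm1Mps/J and adult age. All cells had been infected with a lentiCRISPR vector, which delivers the Cas9 nuclease together with a guide RNA, and RNA was taken 2 weeks later. There were 3 libraries with a guide against Ofd1 (sgOfd1), 2 with a guide against Kif3a (sgKif3a) and 2 with a guide against GFP (sgGFP), the control. Ofd1 sits at centrioles and at the base of the cilium, Kif3a is part of the kinesin-2 motor, and primary cilia need both. The series text counts 3 GFP replicates, and the 2 with data here were used. The sources used here give neither the guide sequences nor whether the cells were clones or a mixture. The replicates are labelled biological, but nothing states that they came from separate infections, so the p-values measure the spread between these libraries.

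Classical cadherins bind their own kind on a neighbouring cell and hold the actin cytoskeleton through catenins. Type I members such as N-cadherin (Cdh2) and type II members such as Cdh8 and Cdh20 sort neurons into groups as the brain forms. Protocadherins have more extracellular repeats and bind no catenin. In the alpha and gamma clusters each gene joins its own variable exon to exons shared by the whole cluster, whereas each beta gene is its own single exon, and neurons choose different members and so tell themselves from their neighbours. Cdh23 and Pcdh15 are best known as the pair that forms the tip link of the hair cells of the inner ear. In the cerebellum, N-cadherin takes part in the adhesion and migration of granule neuron precursors, the cells from which Hedgehog-driven medulloblastoma arises.

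The targeted genes were looked at first. Kif3a RNA stood at 73.9 and 60.7 CPM in the sgKif3a libraries, against 104 CPM in each sgGFP library, and fell by 0.62 in log2 fold change (SE 0.0929, edgeR adjusted p 0.00147). Ofd1 RNA stood at 21.0, 19.98 and 22.03 CPM in the sgOfd1 libraries, against 22.5 and 23.1 CPM in the sgGFP libraries (log2 fold change -0.12, SE 0.0883, edgeR adjusted p 0.406). The RNA level thus did not mark the sgOfd1 libraries as edited against sgGFP, and the cut sites were not looked at here. In the sgKif3a libraries Ofd1 RNA stood at 31.6 and 29.1 CPM, above sgGFP (log2 fold change 0.41, SE 0.0945, edgeR adjusted p 0.0138). For sgOfd1 against sgKif3a the log2 fold change of Ofd1 was -0.53 (SE 0.0861, edgeR adjusted p 0.0564). The sgOfd1 and sgKif3a libraries are called edited for short, although the edits themselves were not checked. The 7 libraries held between 17961767 and 23022701 counts, at which 3 counts, the largest expected count that an observed 0 allows, correspond to 0.129 to 0.166 CPM, for counting error only. CPM are a gene's counts scaled to a common library size with edgeR's TMM factors. All 10 listed markers of granule neuron progenitors and medulloblastoma, Atoh1, Zic1 and Barhl1 among them, were detected, and their summed level was 3013 to 3469 CPM in sgOfd1, 3204 and 3345 CPM in sgKif3a and 2918 and 2966 CPM in sgGFP libraries. The markers did not move together. Atoh1 stood at 496 to 619 CPM in sgOfd1 and 566 and 551 CPM in sgKif3a, against 364 and 388 CPM in sgGFP libraries, and Barhl1, Pax6 and Neurod1 were likewise higher in every edited library. The Hedgehog pathway genes went the other way, with Gli1 at 167 to 325 CPM in sgOfd1 and 201 and 310 CPM in sgKif3a, against 427 and 476 CPM in sgGFP libraries, and Gli2 and Mycn also lower in every edited library. The part of these differences in the results on the members was not tested. Markers of microglia and macrophages summed to 3.34 to 4.83 CPM in sgOfd1 and to 3.37 and 3.68 CPM in sgKif3a libraries, against 24.8 CPM in sgGFP replicate 1 and 2.95 CPM in sgGFP replicate 2, so sgGFP replicate 1 stood apart. In it 11 of the 15 markers had their highest value, while the defining marker Cx3cr1 was at 0 in all libraries.

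The family made up between 0.0916% and 0.103% of the counts of a library. Of the 94 members, 13 had no count in any library and 14 had counts too few to test, the highest total among them being 8. The other 67 reached the 10 counts, summed over the 7 libraries, that the rule asks for, and the lowest total among those tested was 11. Type II cadherins gave 38.0% of the family's counts, the beta cluster 20.5%, type I cadherins 14.7%, the protocadherins outside the clusters 12.6%, the atypical Cdh genes 6.58%, the gamma cluster 6.16% and the alpha cluster 1.42%. Per length of exon sequence, Cdh20 stood far above the others at a mean level of 62.1 CPM per kilobase over all libraries. It was followed by Pcdh18 at 13.5, Cdh22 at 12.2, Cdh4 at 9.85, Pcdhgc3 at 9.24 and Cdh2 at 8.57 CPM per kilobase. The place of Pcdhgc3 is uncertain, since 3678 of its 5499 exon bases overlap other genes. Cdh23 stood at 2.86 CPM per kilobase in sgOfd1, 3.92 in sgKif3a and 0.706 in sgGFP libraries on this scale. Members at 0 everywhere included the type II cadherins Cdh6, Cdh9, Cdh12 and Cdh19, the atypical Cdh26, Pcdh11x, Pcdhb1 and 6 genes of the alpha cluster. Those with too few counts to test were Cdh3, Cdh16, Cdh17, Pcdh7, Pcdh10, Pcdh12 and Pcdh20 outside the clusters, and 3 alpha and 4 gamma genes. Cdh17, a cadherin of gut and liver epithelium, had 2 counts in all.

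The promoters shown here belong to the members called in both comparisons with sgGFP with an entry in the RefSeq promoter table used (GRCm38.p6), and to Cdh20, the most abundant member, which was called in neither. Each runs from 250 bases before to 50 bases after the annotated start, 5′ to 3′ on the gene's strand, with every match to the motifs searched in capitals and positions given for the leftmost base of a match. The Cdh23 promoter lies at chr10:60696441-60696740 on the minus strand and the Pcdh15 promoter at chr10:73821617-73821916 on the plus strand. The Pcdh8 promoter lies at chr14:79771263-79771562 (minus), the Cdh22 promoter at chr2:165234688-165234987 (minus) and the Cdh20 promoter at chr1:104768270-104768569 (plus).
Cdh23: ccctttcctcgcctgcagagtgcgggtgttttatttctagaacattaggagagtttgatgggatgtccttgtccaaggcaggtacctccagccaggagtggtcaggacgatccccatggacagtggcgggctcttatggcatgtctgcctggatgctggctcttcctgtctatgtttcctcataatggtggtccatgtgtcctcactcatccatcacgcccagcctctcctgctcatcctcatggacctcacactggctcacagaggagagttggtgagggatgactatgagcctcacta
Pcdh15: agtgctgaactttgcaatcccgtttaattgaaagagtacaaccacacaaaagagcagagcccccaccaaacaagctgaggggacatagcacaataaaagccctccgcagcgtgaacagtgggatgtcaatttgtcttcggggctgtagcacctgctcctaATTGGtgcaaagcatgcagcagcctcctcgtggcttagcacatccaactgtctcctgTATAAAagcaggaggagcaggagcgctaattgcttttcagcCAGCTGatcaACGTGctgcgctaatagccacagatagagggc
Pcdh8: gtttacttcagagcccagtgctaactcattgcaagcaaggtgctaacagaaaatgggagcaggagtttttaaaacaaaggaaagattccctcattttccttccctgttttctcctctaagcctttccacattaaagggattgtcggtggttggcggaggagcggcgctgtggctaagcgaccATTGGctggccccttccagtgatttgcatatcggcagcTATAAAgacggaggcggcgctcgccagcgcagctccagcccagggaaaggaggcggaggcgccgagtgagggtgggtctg
Cdh22: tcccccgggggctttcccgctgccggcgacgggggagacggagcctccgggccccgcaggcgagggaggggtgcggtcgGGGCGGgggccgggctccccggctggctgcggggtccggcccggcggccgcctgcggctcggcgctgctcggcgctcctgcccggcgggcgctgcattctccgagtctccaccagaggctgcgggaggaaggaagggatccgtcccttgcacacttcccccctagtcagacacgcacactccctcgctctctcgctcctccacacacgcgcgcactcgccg
Cdh20: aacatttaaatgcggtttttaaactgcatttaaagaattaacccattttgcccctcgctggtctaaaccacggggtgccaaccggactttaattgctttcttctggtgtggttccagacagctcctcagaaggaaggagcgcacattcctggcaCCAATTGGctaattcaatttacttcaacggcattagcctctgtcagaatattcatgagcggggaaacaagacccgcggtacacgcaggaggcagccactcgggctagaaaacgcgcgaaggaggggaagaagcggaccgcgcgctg

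Searched on both strands were GACCACCCA (the Gli consensus, held by 0.253% of all 32817 promoters in the table), CAGCTG (an E-box, 16.3%), ACGTG (the core of the hypoxia response element, 19.6%), CCAAT (37.4%), TATAAA (13.6%) and GGGCGG (the GC box, 35.6%). The Cdh23 window held none of these letters, had 5 CpG dinucleotides and a GC content of 54.0%, near the medians of all promoters, which were 7 CpG and 52.7%. The windows of Pcdh8 and Pcdh15 each held a TATAAA, at -30 and -33 bases from the start, and a CCAAT on either strand, at -68 and -90. The Pcdh15 window also held CAGCTG at 9 and ACGTG at 19 bases after the start. The Cdh22 window was of another kind, with a GC content of 76.3%, 38 CpG and a GGGCGG at -171. In the Cdh20 window a CCAAT at -96 overlapped its reverse complement at -93. No GACCACCCA was found in the windows of any of the 22 members outside chromosome 18 with an entry. A match is a description of letters, not of a bound site.

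Against sgGFP, the sgOfd1 libraries had 8 of the 67 tested members called, with 5 higher (Cdh23, Pcdh8, Cdh13, Pcdh15, Pcdhb5) and 3 lower (Cdh22, Cdh4, Pcdhac2). Called means an adjusted p under 0.05 in edgeR's quasi-likelihood test, with the Benjamini-Hochberg adjustment made across the 14588 genes tested, and every adjusted p here is of this kind unless another tool is named. Of all tested genes 11.7% were called (5.35% higher and 6.32% lower, so 45.8% of the calls were higher, or 56.6% with library totals in place of TMM factors), so the members' 11.9% lay near the background. The sgKif3a libraries had 10 of 67 members called against the same sgGFP libraries, with 6 higher (Cdh23, Pcdh8, Cdh13, Pcdh15, Pcdh18, Cdh8) and 4 lower (Cdh22, Cdh4, Pcdhac2, Cdh5). That was 14.9% of the members, against 16.4% of all tested genes (7.55% higher and 8.84% lower, so 46.1% of the calls were higher, or 53.8% with library totals). The family as a whole therefore was not called more often than other genes, and the calls are given for single members. Outside the clusters 22 members were tested, with 6 called in sgOfd1 (27.3%, against 11.7% of all tested genes) and 9 in sgKif3a (40.9%, against 16.4%). Of the 45 tested members in the clusters, 2 were called in sgOfd1 (4.44%) and 1 in sgKif3a (2.22%). The family's share thus joined a higher share outside the clusters and a lower one within them, a split that was not tested. Low counts limit it, since alpha and gamma genes other than Pcdhac2 and Pcdhgc3 had at most 301 counts over the 7 libraries. The members were also chosen with earlier results of these data known. The median log2 fold change of the tested members was 0.15 in sgOfd1 and 0.24 in sgKif3a, against 0.00 for all genes in either comparison. It was above 0 for 47 of the 67 members in sgOfd1 and 51 in sgKif3a. Of all 14588 tested genes, 7332 and 7394 were above 0. This lean of the family was not tested as a set. In sgOfd1, 20 of the 67 members had all libraries above and 9 all libraries below both sgGFP libraries. Of the 14588 tested genes, 3391 (23.2%) and 3372 (23.1%) did. In sgKif3a these were 30 and 6 of the 67 members, against 4759 (32.6%) and 4407 (30.2%) of the tested genes. In both comparisons a larger share of members than of all genes thus lay above, and a smaller share below. Both comparisons use the same sgGFP libraries. The count fell to 4 in the sgOfd1 comparison without sgGFP replicate 1, and to 5 without sgGFP replicate 2 or without sgOfd1 replicate 1. In the sgKif3a comparison it fell to 6 without sgGFP replicate 2 and to 3 without sgKif3a replicate 1, where Cdh23, Cdh22 and Pcdh15 were those still called.

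**Figure D1:**
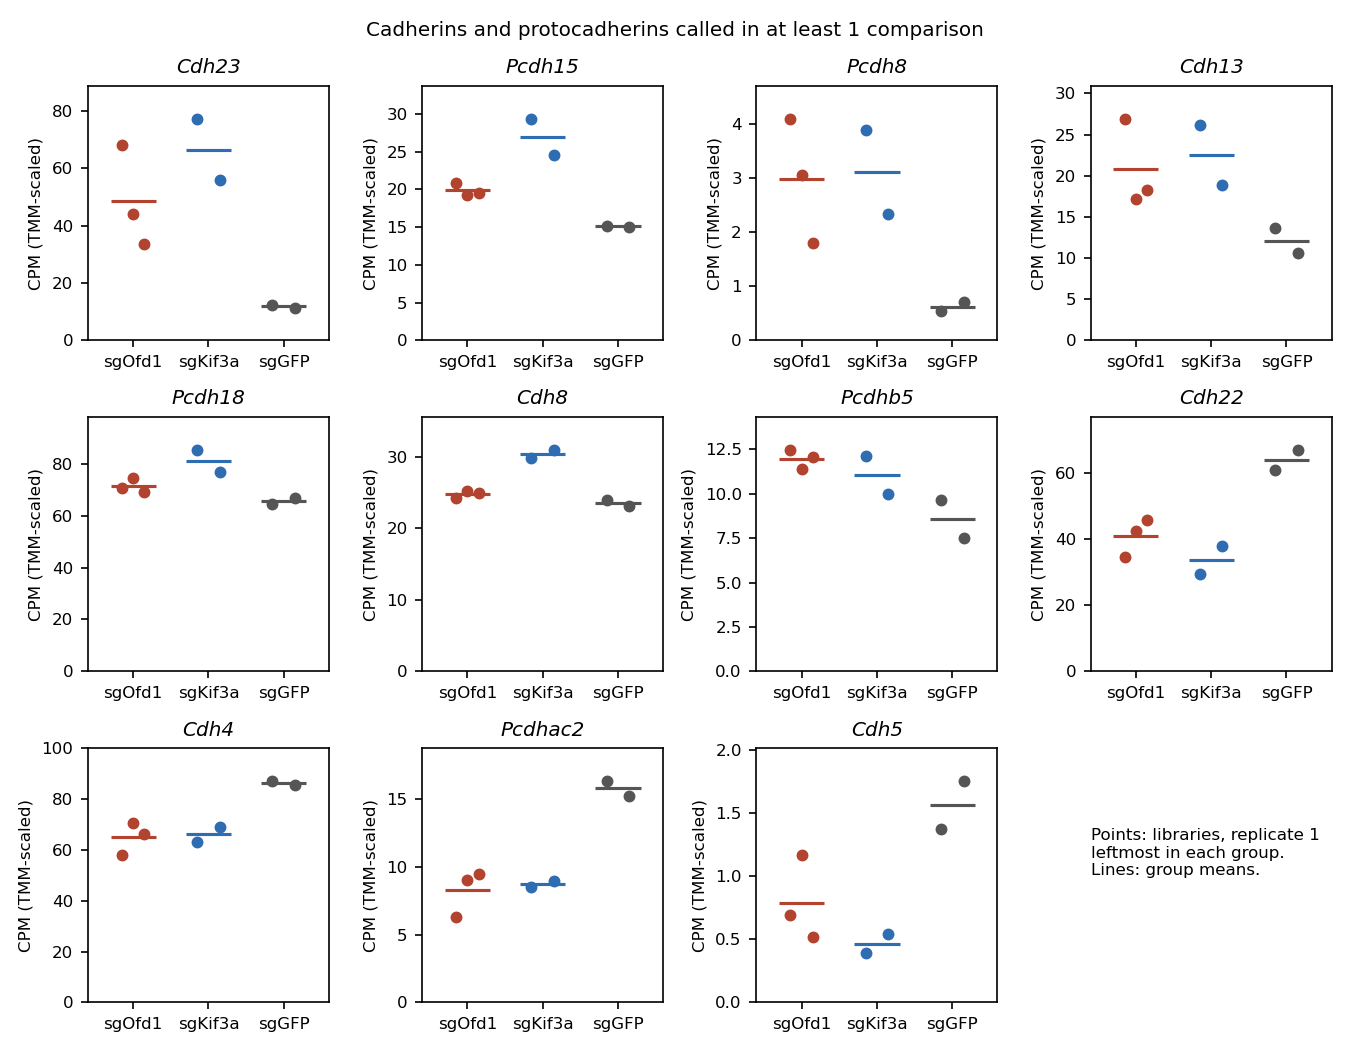
TMM-scaled CPM (vertical axes, each from 0) of the 11 members called in at least 1 comparison, in the sgOfd1 (3), sgKif3a (2) and sgGFP (2) libraries; points are libraries with replicate 1 leftmost and lines are group means. In the Cdh23 panel the sgOfd1 and sgKif3a libraries lie between 33.6 and 77.1 CPM and both sgGFP libraries at 12.5 or below, while Cdh22, Cdh4, Pcdhac2 and Cdh5 are highest in the sgGFP libraries.

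Cdh23, the upper part of the hair cell tip link, stood at 68.0, 43.9 and 33.6 CPM in the sgOfd1 libraries and at 77.1 and 55.9 CPM in the sgKif3a libraries, against 12.5 and 11.5 CPM in the sgGFP libraries. Every sgOfd1 and sgKif3a library lay above both sgGFP libraries, and in each edited group replicate 1 was the highest. The rise was 4.06-fold in sgOfd1 (log2 fold change 2.02, SE 0.270, adjusted p 0.00158) and 5.56-fold in sgKif3a (log2 fold change 2.48, SE 0.283, adjusted p 0.000342). It passed the threshold under all 14 other settings tried, with log2 fold changes of 1.69 to 2.23 in sgOfd1 and 2.21 to 2.69 in sgKif3a. No exon base of Cdh23 overlaps another gene in GENCODE M21. Vsir, a gene that lies within the span of Cdh23 and is listed under an older name, had 5 to 13 counts in the sgOfd1 and sgKif3a libraries, against 29 and 11 in the sgGFP libraries.

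Pcdh15, its partner in the tip link, stood at 20.9, 19.3 and 19.6 CPM in sgOfd1 and at 29.3 and 24.6 CPM in sgKif3a libraries, against 15.2 and 15.1 CPM in sgGFP libraries. The 3 groups did not overlap, with sgKif3a highest and sgGFP lowest. The rise was 1.32-fold in sgOfd1 (log2 fold change 0.40, SE 0.104, adjusted p 0.0324) and 1.79-fold in sgKif3a (log2 fold change 0.84, SE 0.111, adjusted p 0.000791). In sgOfd1 the call was lost without sgGFP replicate 1 (adjusted p 0.173), sgGFP replicate 2 (0.168), sgOfd1 replicate 1 (0.0869) or sgOfd1 replicate 2 (0.0601). In sgKif3a it held under all 14 settings. Of 9 listed genes that work with the tip link in hair cells, 4 could be tested. Of these 4, 1 was called in each comparison with sgGFP, against 11.7% and 16.4% of all tested genes. Cib2, a calcium-binding protein of the transduction complex, rose by 0.47 on the log2 scale in sgOfd1 (adjusted p 0.0299). It was not called in sgKif3a, although at 27.01 and 24.1 CPM it lay above sgGFP, at 22.1 and 19.2 CPM. Whrn, a scaffold of stereocilia, fell by 0.51 in sgKif3a (adjusted p 0.00714). It was not called in sgOfd1, although at 52.7, 57.4 and 50.2 CPM it lay below sgGFP, at 65.9 and 66.5 CPM.

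Pcdh8, known in rat neurons as arcadlin, which takes N-cadherin from the synapse surface, stood at 4.08, 3.05 and 1.80 CPM in sgOfd1 and at 3.88 and 2.33 CPM in sgKif3a libraries, against 0.540 and 0.701 CPM in sgGFP libraries. The counts behind these were 83, 55 and 35 in sgOfd1, 90 and 43 in sgKif3a and 11 and 14 in sgGFP. All edited libraries lay above both sgGFP libraries, at low levels throughout. The rise was 4.78-fold in sgOfd1 (log2 fold change 2.26, SE 0.425, adjusted p 0.00738) and 5.02-fold in sgKif3a (log2 fold change 2.33, SE 0.446, adjusted p 0.00555). Without sgKif3a replicate 1 the sgKif3a call was lost (adjusted p 0.0825). Of the 75-base stretches of Pcdh8 exon sequence, 7.65% also occur in another gene on either strand.

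Cdh13, or T-cadherin, which is held in the membrane by a lipid anchor and lacks the cytoplasmic part that binds catenins, stood at 26.9, 17.1 and 18.3 CPM in sgOfd1 and at 26.2 and 18.9 CPM in sgKif3a libraries, against 13.6 and 10.7 CPM in sgGFP libraries. The groups did not overlap with sgGFP, and replicate 1 was again the highest of each edited group. The rise was 1.71-fold in sgOfd1 (log2 fold change 0.78, SE 0.209, adjusted p 0.0360) and 1.87-fold in sgKif3a (log2 fold change 0.90, SE 0.224, adjusted p 0.0204). The sgOfd1 call was lost without sgGFP replicate 1 (adjusted p 0.0519), sgGFP replicate 2 (0.187) or sgOfd1 replicate 1 (0.0841). The sgKif3a call was lost without sgGFP replicate 2 (adjusted p 0.0930) or sgKif3a replicate 1 (0.218).

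**Figure D2:**
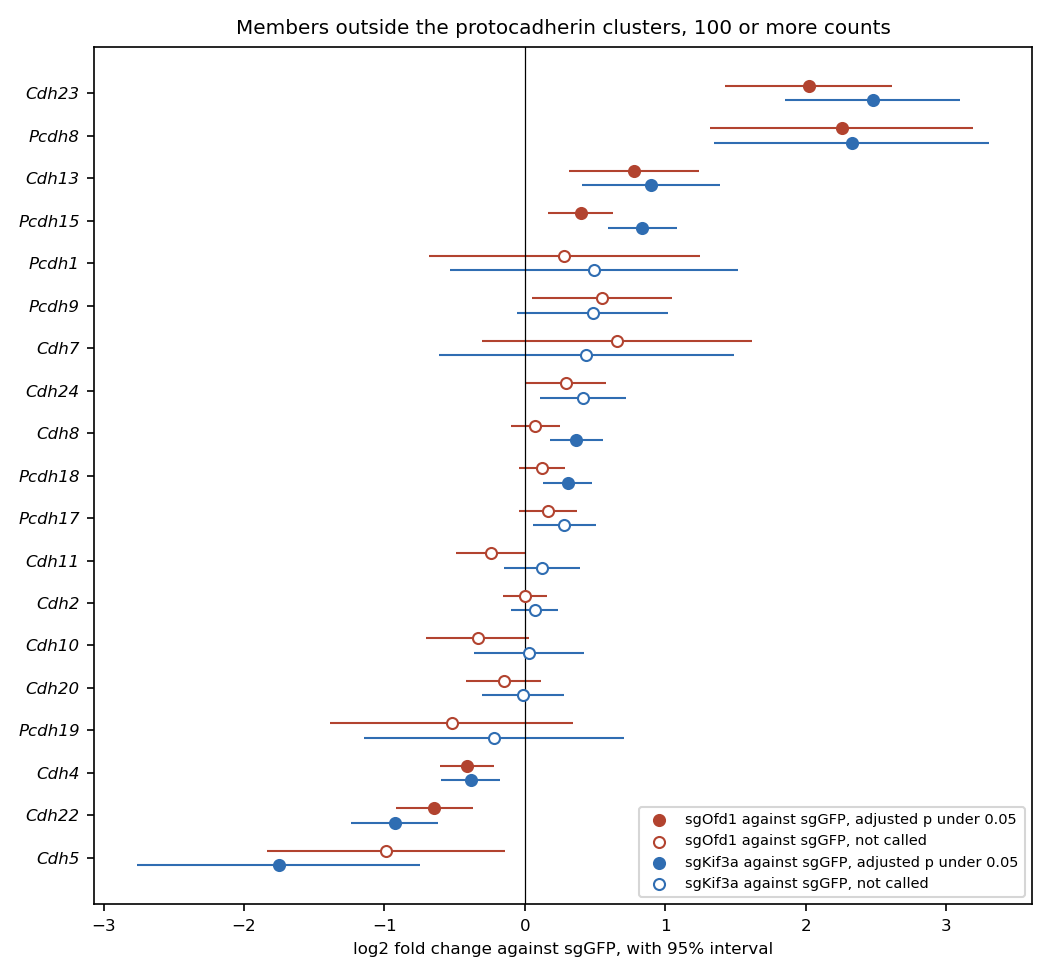
Log2 fold change against sgGFP (horizontal axis) with its 95% interval for the members outside the protocadherin clusters that had 100 or more counts over the 7 libraries, for sgOfd1 (red, upper of each pair) and sgKif3a (blue, lower); filled points have an edgeR adjusted p under 0.05. Cdh23 and Pcdh8 lie above 2 in both comparisons, Cdh2 and Cdh20 lie near 0, and Cdh5, Cdh22 and Cdh4 lie below 0.

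Pcdh18 and Cdh8 rose in sgKif3a. Pcdh18, whose cytoplasmic part binds the adaptor Dab1 in mouse, stood at 70.8, 74.6 and 69.0 CPM in sgOfd1 and at 85.2 and 76.8 CPM in sgKif3a libraries, against 64.5 and 66.8 CPM in sgGFP libraries (sgKif3a log2 fold change 0.30, SE 0.0802, adjusted p 0.0259). Its sgOfd1 log2 fold change was 0.12 (SE 0.0738, adjusted p 0.309), although all 3 sgOfd1 libraries lay above both sgGFP libraries. Cdh8, a type II cadherin that joins sets of matching neurons, stood at 24.3, 25.3 and 24.96 CPM in sgOfd1 and at 29.9 and 30.9 CPM in sgKif3a libraries, against 24.0 and 23.2 CPM in sgGFP libraries (sgKif3a log2 fold change 0.37, SE 0.0862, adjusted p 0.0159). The sgKif3a libraries stood above all others, and the sgOfd1 log2 fold change was 0.07 (SE 0.0800, adjusted p 0.593). Both sgKif3a calls were lost without sgGFP replicate 1 (adjusted p 0.189 for Pcdh18 and 0.0957 for Cdh8), sgGFP replicate 2 (0.0967 and 0.125) or sgKif3a replicate 1 (0.213 and 0.0798). That of Cdh8 was also lost without sgKif3a replicate 2 (0.0689).

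Cdh22, a type II cadherin of the brain, stood at 34.5, 42.4 and 45.7 CPM in sgOfd1 and at 29.5 and 37.8 CPM in sgKif3a libraries, against 60.8 and 66.7 CPM in sgGFP libraries. Every edited library lay below both sgGFP libraries, and replicate 1 was the lowest of each edited group. The fold change was 0.640 in sgOfd1 (log2 fold change -0.64, SE 0.125, adjusted p 0.00857) and 0.526 in sgKif3a (log2 fold change -0.93, SE 0.140, adjusted p 0.00157). Both calls held under all 14 settings.

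Cdh4, or R-cadherin, a type I cadherin of the retina and brain, stood at 58.0, 70.6 and 66.3 CPM in sgOfd1 and at 63.2 and 69.2 CPM in sgKif3a libraries, against 87.1 and 85.7 CPM in sgGFP libraries. The sgGFP libraries were the highest of the 7. Cdh4 fell by 0.41 on the log2 scale in sgOfd1 (SE 0.0869, adjusted p 0.0126) and by 0.39 in sgKif3a (SE 0.0957, adjusted p 0.0201). Both calls were lost without sgGFP replicate 1 (adjusted p 0.0762 in sgOfd1 and 0.0922 in sgKif3a) and without sgGFP replicate 2 (0.0515 and 0.0628), and that of sgKif3a without sgKif3a replicate 1 (0.164).

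Cdh5, or VE-cadherin, the adhesion protein of endothelial cells, had 14, 21 and 10 counts in sgOfd1 and 9 and 10 counts in sgKif3a libraries, against 28 and 35 counts in sgGFP libraries. These are 0.689, 1.17 and 0.515 CPM in sgOfd1 and 0.388 and 0.541 CPM in sgKif3a, against 1.37 and 1.75 CPM in sgGFP. It was highest in both sgGFP libraries and called in sgKif3a (log2 fold change -1.75, SE 0.458, adjusted p 0.0250), but not in sgOfd1 (-0.99, SE 0.384, adjusted p 0.119). The sgKif3a call was lost without sgGFP replicate 2 (adjusted p 0.0832), sgKif3a replicate 1 (0.195) or sgKif3a replicate 2 (0.0716), and in DESeq2 (0.0564). The 10 endothelial markers, with Cdh5 among them, summed to 12.01, 12.3 and 15.03 CPM in sgOfd1 and to 8.41 and 11.1 CPM in sgKif3a, against 18.1 and 17.9 CPM in sgGFP libraries. Most of that was Egfl7, at 6.43 to 12.6 CPM in the edited libraries and 14.3 and 14.7 CPM in the sgGFP libraries, while Cldn5 was at 0 in all and Kdr at no more than 0.100 CPM in any. Esam was higher in every edited library, at 0.333 to 0.703 CPM, against 0.0491 and 0.250 CPM in sgGFP libraries, and the groups overlapped for Vwf, at 0.515 to 0.993 CPM in the edited libraries and 0.687 and 0.851 CPM in the sgGFP libraries. The part of endothelial cells in the Cdh5 result was not tested, and in bulk libraries fewer cells of a type and less RNA per cell cannot be told apart.

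Several abundant members were called in neither comparison. Cdh20, a type II cadherin, stood at 189, 261 and 255 CPM in sgOfd1 and at 241 and 277 CPM in sgKif3a libraries, against 263 and 259 CPM in sgGFP libraries. Only sgOfd1 replicate 1 stood clearly below the rest (log2 fold change -0.15 in sgOfd1, 95% interval -0.42 to 0.11, and -0.01 in sgKif3a, interval -0.30 to 0.28). Cdh2, the N-cadherin of neural cells, stood at 65.8, 71.5 and 67.4 CPM in sgOfd1 and at 73.4 and 69.5 CPM in sgKif3a libraries, against 66.5 and 69.8 CPM in sgGFP libraries. Its 3 groups overlapped, and the 95% interval of the log2 fold change ran from -0.15 to 0.16 in sgOfd1 and from -0.10 to 0.24 in sgKif3a. Pcdh17, a protocadherin of growing axons and synapses, stood at 19.1, 19.0 and 19.1 CPM in sgOfd1 and at 21.9 and 19.4 CPM in sgKif3a, against 17.2 and 16.9 CPM in sgGFP libraries. Both edited groups lay above sgGFP without passing the test (log2 fold change 0.17 in sgOfd1, adjusted p 0.283, and 0.28 in sgKif3a, adjusted p 0.0859). Cdh24, another type II cadherin, stood at 19.6, 23.4 and 18.3 CPM in sgOfd1 and at 20.8 and 23.6 CPM in sgKif3a, against 15.2 and 18.1 CPM in sgGFP libraries. Its log2 fold changes were 0.29 in sgOfd1 (adjusted p 0.163) and 0.41 in sgKif3a (adjusted p 0.0660), again with sgGFP lowest and no call.

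At the low end of the classical cadherins, Cdh1, the E-cadherin of epithelia, had 1 count in sgOfd1 replicate 1 and 20 counts in sgGFP replicate 1 and none in any other library. It was not called in either comparison with sgGFP (adjusted p 0.0990 in sgOfd1 and 0.0843 in sgKif3a), and no fold is given because a single library holds its counts. The 6 epithelial markers, Cdh1 included, summed to 0.206 to 0.394 CPM in sgOfd1, 0.129 and 0.379 CPM in sgKif3a and 1.18 and 0.250 CPM in sgGFP libraries, with Cldn4 at 0 in all. That library was also the one with the microglia and macrophage markers. Cdh15, or M-cadherin, the muscle cadherin, had 11 counts over all libraries, and Cdh3, or P-cadherin, had 1.

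Set against each other, sgOfd1 and sgKif3a differed in no member at the threshold, with 0 of 67 called in edgeR and 0 in DESeq2. Of all 14588 genes 0.103% were called, 15 in all, each higher in sgOfd1. At an unadjusted p under 0.05 there were 4 of the 67 members, each lower in sgOfd1, against 1243 of all 14588 genes, so the members did not stand above the background. Of these 4, Pcdh15 had the largest log2 fold change, -0.44 for sgOfd1 against sgKif3a (95% interval -0.66 to -0.22, adjusted p 0.191). For Cdh11, the mesenchymal OB-cadherin, it was -0.37 (interval -0.61 to -0.12, adjusted p 0.383), for Cdh8 -0.29 (interval -0.46 to -0.12, adjusted p 0.300) and for Pcdh18 -0.18 (interval -0.34 to -0.02, adjusted p 0.542). For Cdh23 the difference was -0.46 with an interval of -0.96 to 0.04, and the groups overlapped, as sgOfd1 replicate 1 at 68.0 CPM lay above sgKif3a replicate 2 at 55.9 CPM. For Pcdh8 the interval was -0.80 to 0.65 and for Cdh22 -0.00 to 0.57, so differences of that size between the guides could not be resolved. The median difference of the 67 members was -0.12, against 0.00 for all genes.

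Within each edited group the libraries did not move equally. Of the 8 members called in sgOfd1, sgOfd1 replicate 1 was the library farthest from sgGFP in 8, as it was for 75.8% of the 1702 genes called in that comparison. Of the 10 members called in sgKif3a, sgKif3a replicate 1 was the farthest in 9, the exception being Cdh8, and it was so for 76.3% of all 2390 called genes.

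The clustered protocadherins were read with their shared exons in mind. Of the 75-base stretches that a read could cover, a median of 58.0% in the alpha genes and 46.3% in the gamma genes also occur in another gene, against 1.23% in the beta genes and a median of 0 in the other classes. This was computed from GENCODE M21 transcripts on GRCm38, which hold 92 of the 94 members. Matches on either strand were counted although the libraries were stranded, so the share that a read could not tell apart may be smaller. The sources used here do not say how such reads were counted, but 6 alpha genes stood at 0 in every library while Pcdhac2 had 1473 counts, so reads from the constant exons were not given to every gene of the cluster. Single alpha and gamma genes are therefore uncertain, and the sum of each cluster is given beside them.

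**Figure D3:**
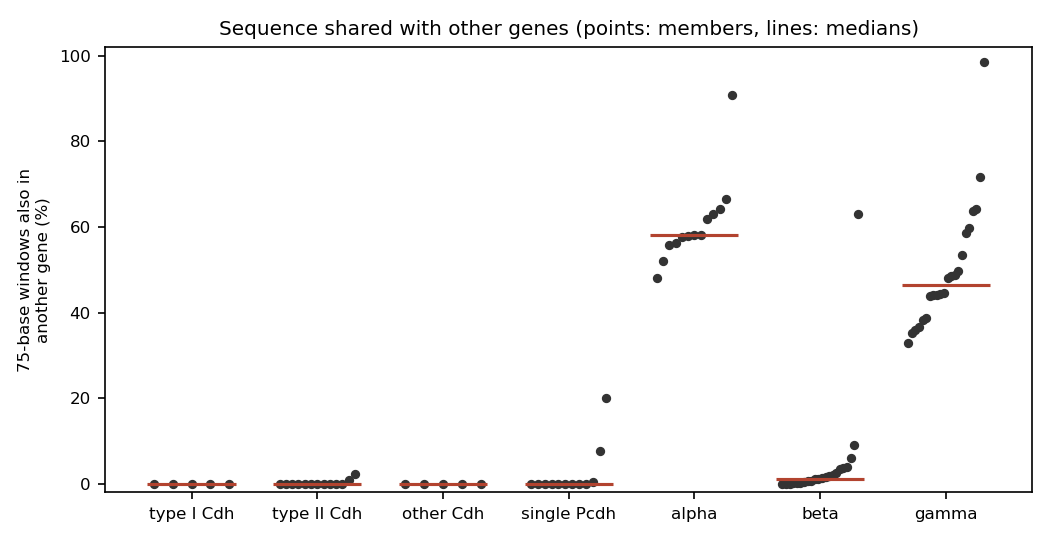
Percent of 75-base stretches of exon sequence that also occur in another gene on either strand (vertical axis) for each member, by class (horizontal axis). Points are genes and red lines are class medians. The alpha and gamma genes lie between 32.9% and 98.4%, and the beta genes and the members outside the clusters lie near 0 with few exceptions, such as Pcdhb12 at 62.9% and Pcdh7 at 20.1%.

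In the alpha cluster Pcdhac2, a C-type isoform needed in mice for the spacing of serotonergic axons, gave 77.9% of the counts and was the member called. It stood at 6.30, 9.05 and 9.47 CPM in sgOfd1 and at 8.50 and 8.92 CPM in sgKif3a libraries, against 16.3 and 15.2 CPM in sgGFP libraries. All edited libraries lay well below both sgGFP libraries. Pcdhac2 fell by 0.93 on the log2 scale in sgOfd1 (SE 0.155, adjusted p 0.00416) and by 0.86 in sgKif3a (SE 0.171, adjusted p 0.00696), and the sgKif3a call was lost without sgKif3a replicate 1 (adjusted p 0.0835). The cluster's sum was 9.15, 12.3 and 12.2 CPM in sgOfd1 and 11.8 and 12.9 CPM in sgKif3a, against 18.9 and 17.6 CPM in sgGFP libraries. The alpha genes other than Pcdhac2 summed to 2.85, 3.22 and 2.73 CPM in sgOfd1 and to 3.28 and 3.95 CPM in sgKif3a, against 2.55 and 2.40 CPM in sgGFP libraries. Those sums thus stood higher in every edited library than in either sgGFP library, the other way round from Pcdhac2, a description without a test.

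In the gamma cluster 18 of 22 genes could be tested and none was called in the main edgeR fit. In each comparison with sgGFP, 1 was at an unadjusted p under 0.05. Of all 14588 genes, 4172 in sgOfd1 and 4635 in sgKif3a were at such a p. Pcdhgc3, a C-type isoform that promotes dendrite branching in mouse cortical neurons, gave 86.3% of the counts. It stood at 46.7, 49.0 and 49.6 CPM in sgOfd1 and at 48.2 and 49.5 CPM in sgKif3a libraries, against 57.8 and 54.8 CPM in sgGFP libraries. The edited libraries all lay below both sgGFP libraries, but the log2 fold changes of -0.22 in sgOfd1 (SE 0.0693, adjusted p 0.0650) and -0.21 in sgKif3a (SE 0.0760, adjusted p 0.0895) did not pass the threshold. The gamma sum was 55.3, 57.2 and 57.0 CPM in sgOfd1 and 56.6 and 59.2 CPM in sgKif3a, against 65.2 and 61.7 CPM in sgGFP libraries. The gamma genes other than Pcdhgc3 summed to 8.66, 8.21 and 7.41 CPM in sgOfd1 and to 8.41 and 9.68 CPM in sgKif3a, against 7.46 and 6.86 CPM in sgGFP libraries. That sum was higher in both sgKif3a libraries than in either sgGFP library, while sgOfd1 overlapped with sgGFP, and 13 of the 18 tested gamma genes in sgOfd1 and 14 in sgKif3a had a log2 fold change above 0. Of these other genes, the most abundant, Pcdhgb8, had 301 counts over the 7 libraries.

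In the beta cluster, whose genes other than Pcdhb12 share little sequence, 21 of 22 genes were tested. Pcdhb5 was called in sgOfd1, at 12.5, 11.4 and 12.04 CPM in sgOfd1 and 12.1 and 10.005 CPM in sgKif3a, against 9.62 and 7.51 CPM in sgGFP libraries. The edited libraries lay above both sgGFP libraries by a small margin. The sgOfd1 log2 fold change was 0.48 (SE 0.140, adjusted p 0.0492) and was lost under 10 of the 14 other settings, among them DESeq2 (adjusted p 0.0815) and the leaving out of any 1 of the 7 libraries. In sgKif3a it was 0.37 (SE 0.153, adjusted p 0.119). No beta gene was called in sgKif3a by edgeR, with 3 of 21 at an unadjusted p under 0.05, against 4635 of all 14588 genes. The log2 fold changes were small and mostly positive, with 18 of 21 above 0 in sgOfd1 (median 0.15, range -0.09 to 0.52) and 20 of 21 above 0 in sgKif3a (median 0.23, range -0.08 to 0.57), against 0.00 as the median of all genes. In sgOfd1 the 3 libraries of 5 of the 21 beta genes all lay above both sgGFP libraries, near the 23.2% of all tested genes. In sgKif3a both libraries of 13 of the 21 did, a larger share than the 32.6% of all tested genes. The beta sum was 211, 183 and 204 CPM in sgOfd1 and 220 and 191 CPM in sgKif3a, against 179 and 177 CPM in sgGFP libraries. No single gene carried it, since the most abundant, Pcdhb11, gave 13.2% of the counts and stood at 29.2, 23.3 and 26.9 CPM in sgOfd1 and 28.2 and 25.1 CPM in sgKif3a, against 23.8 CPM in each sgGFP library.

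**Figure D4:**
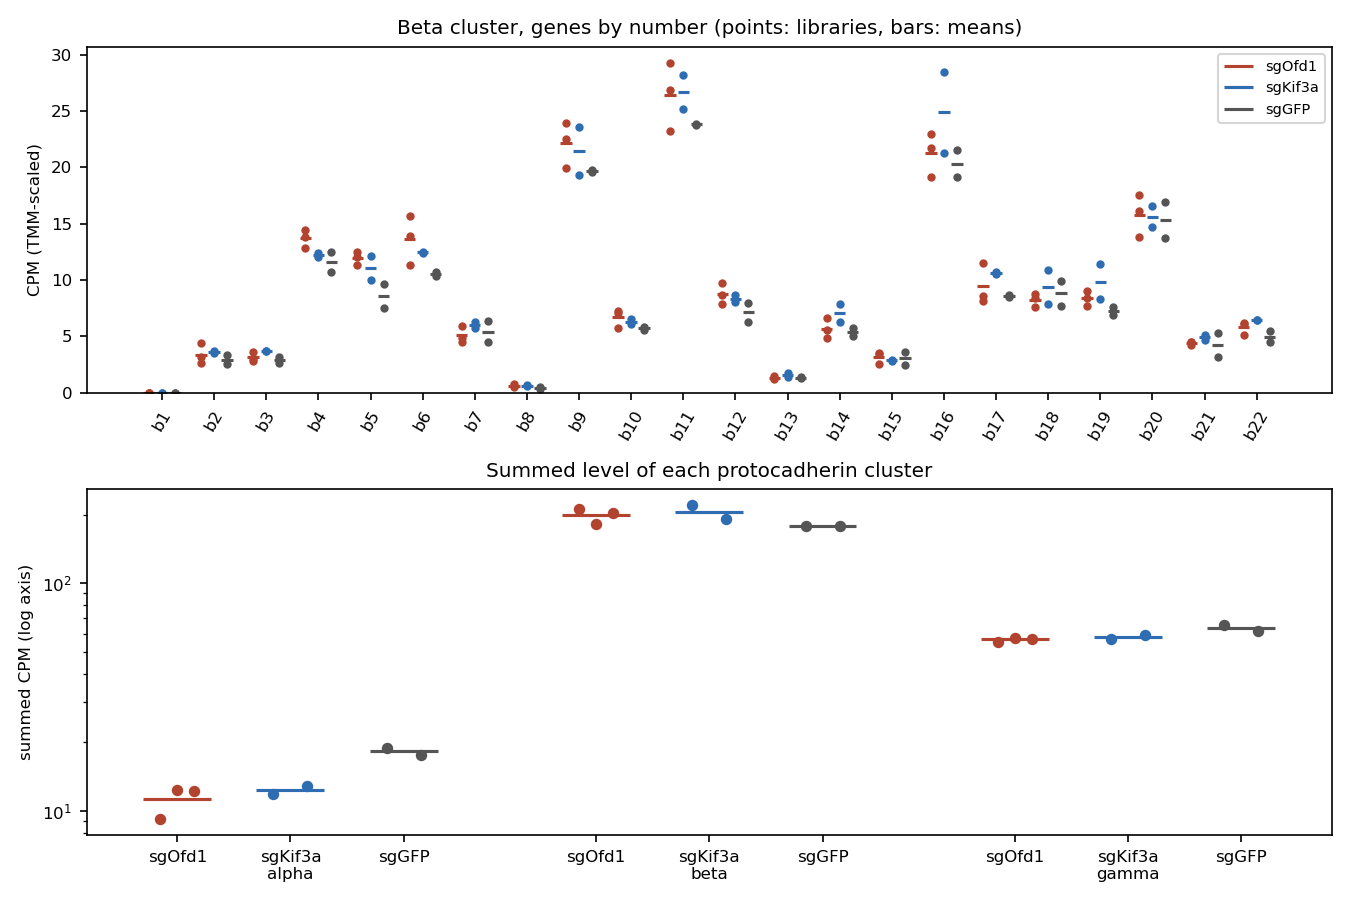
Above, TMM-scaled CPM of each beta protocadherin gene (horizontal axis, by number; points are libraries, bars are group means), and below, the summed CPM of the alpha, beta and gamma clusters on a log axis, for sgOfd1 (3 libraries), sgKif3a (2) and sgGFP (2). The alpha sum is 9.15 to 12.9 CPM in the edited libraries and 17.6 and 18.9 CPM in the sgGFP libraries, the beta sum is highest in sgKif3a replicate 1 at 220 CPM, and the gamma sum is slightly higher in the sgGFP libraries.

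Genes that work with cadherins were counted from lists of the pathway's parts. Of 11 tested catenins and other cytoplasmic partners, 3 rose in sgOfd1 and 2 in sgKif3a, and none fell. These are 27.3% and 18.2% of the list, against 11.7% and 16.4% of all tested genes. Vcl, the actin linker vinculin, rose by 0.41 on the log2 scale in sgOfd1 (adjusted p 0.00752) and by 0.47 in sgKif3a (adjusted p 0.00384). Jup, the junction protein plakoglobin, stood at 36.3, 29.0 and 28.1 CPM in sgOfd1 and 28.1 and 27.7 CPM in sgKif3a, against 21.5 and 21.2 CPM in sgGFP libraries, and was called in sgOfd1 (log2 fold change 0.55, adjusted p 0.0117). Ctnnbip1, an inhibitor of beta-catenin, had log2 fold changes of 0.31 in sgOfd1 (adjusted p 0.0210) and 0.32 in sgKif3a (adjusted p 0.0217).

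Among the 11 giant and related cadherins of the Fat, Dachsous, Celsr and calsyntenin families, 1 rose and 2 fell in sgOfd1, and 2 rose and 3 fell in sgKif3a. The called shares were 27.3% in sgOfd1 and 45.5% in sgKif3a, against the same 11.7% and 16.4% of all tested genes. Fat3 fell by 0.73 on the log2 scale in sgOfd1 (adjusted p 0.0139) and by 0.84 in sgKif3a (adjusted p 0.00910), and Fat2, a giant cadherin of cerebellar granule cells, fell by 0.90 in sgOfd1 (adjusted p 0.0144) and 0.71 in sgKif3a (adjusted p 0.0435). Fat4, which pairs with Dachsous proteins across cell borders, stood at 15.3, 15.5 and 14.0 CPM in sgOfd1 and 21.4 and 20.8 CPM in sgKif3a, against 11.3 and 12.3 CPM in sgGFP libraries, and was called in sgKif3a (log2 fold change 0.84, adjusted p 0.000739). Its partner Dchs1 rose by 0.32 in sgOfd1 (adjusted p 0.0484) and 0.34 in sgKif3a (adjusted p 0.0393).

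The remaining lists had called shares near or below those of all tested genes where 7 or more genes could be tested: 13.3% of the signalling partners, 6.67% of the processing and promoter control genes and 14.3% of the regulators in each comparison with sgGFP. Of 15 protocadherin signalling partners, Ptk2b, the kinase PYK2 that alpha and gamma protocadherins restrain, rose by 1.44 on the log2 scale in sgOfd1 (adjusted p 0.0138) and by 1.60 in sgKif3a (adjusted p 0.00791). Its levels were low, at 3.00, 2.39 and 2.11 CPM in sgOfd1 and 3.37 and 2.16 CPM in sgKif3a, against 0.835 and 1.00 CPM in sgGFP libraries. The kinase Fyn fell by 0.23 in sgOfd1 (adjusted p 0.0383) and 0.27 in sgKif3a (adjusted p 0.0207). Of 15 genes that cleave cadherins or control the clustered promoters, Dnmt3b, a DNA methyltransferase that methylates clustered protocadherin promoters in mice, rose by 0.49 in sgOfd1 (adjusted p 0.0317) and 0.64 in sgKif3a (adjusted p 0.00946). Of 7 tested transcriptional regulators of cadherins, Twist1 fell by 0.38 in sgOfd1 (adjusted p 0.0135) and 0.40 in sgKif3a (adjusted p 0.0133). The only desmosomal cadherin that could be tested was not called. Between sgOfd1 and sgKif3a no gene of these lists was called in edgeR. Twist1 and Cdh11 also stand among the 10 fibroblast and mesenchymal markers, which summed to 113, 173 and 203 CPM in sgOfd1 and 127 and 167 CPM in sgKif3a, against 311 and 297 CPM in sgGFP libraries. Most of that sum was Pdgfra, at 79.4 to 169 CPM in the edited libraries and 268 and 255 CPM in the sgGFP libraries, while Dcn was at or near 0 and Col1a1 below 1 CPM in all 7, and the part of such cells in the results was not tested. Markers of the oligodendrocyte lineage summed to between 13.7 and 16.4 CPM in every library with Sox10, Mog and Cdh19 at 0, and the astrocyte markers to 491 to 645 CPM in sgOfd1, 522 and 634 CPM in sgKif3a and 468 and 485 CPM in sgGFP libraries with Aqp4 at 0.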

How the data were processed

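Stranded poly-A libraries of 7 SMB21 cultures were sequenced from 1 end for 75 bases on the same run, per the labels' protocols. The table the authors deposited holds raw counts, as unnormalized whole numbers for each gene in each library. Per the submitters' processing notes, STAR, DESeq2 and mm9 were used, in roles and versions that are not stated. The sources used here name no counter, annotation or rule for shared reads, so genes that share exons may have lost or gained reads.

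The 14588 genes with 10 or more counts over the 7 libraries, which held 99.99% of the counts, were fitted in edgeR 4.0.16 (R 4.3.3) with TMM factors and a mean per group, leaving 4 residual degrees of freedom and a common biological coefficient of variation of 7.57%. Contrasts were tested with the quasi-likelihood F test and adjusted by Benjamini-Hochberg over all of these genes, with a threshold of 0.05. The SE comes from the F statistic and intervals are 95%. The 94 members and all lists were chosen with earlier results of these data known. Named in full were members called in any comparison, the 3 most abundant of each class outside the clusters and Cdh23. Of each partner list, up to 3 called genes per comparison were named, those with the smallest adjusted p. Beyond this rule, Pcdhgc3, Pcdhb11, Pcdhgb8, Cdh3, Cdh11, Cdh15, Cdh24, the markers and Vsir were added after their values were seen. Alternatives were RLE factors, library totals, edgeR's filterByExpr, no filter, DESeq2 1.42.0, only the groups compared, a replicate block and leaving out each library. Replicates of a group differed by more than sampling noise, with a chi-square per degree of freedom of 4.06 or more.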

Additional observations from a re-analysis of the deposited data

How the results depend on the processing

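In the comparison where it was called, no member's log2 fold change changed sign under any of the 14 alternatives. Calls that held in all 14 were those of Cdh23 and Cdh22 in both comparisons with sgGFP, of Pcdh8 and Pcdhac2 in sgOfd1 and of Pcdh15 in sgKif3a. With 1 library left out, the members called numbered 4 to 8 in sgOfd1 against sgGFP, 3 to 10 in sgKif3a against sgGFP and 0 in sgOfd1 against sgKif3a. Over all genes, the same gave 672 to 2502, 647 to 2862 and 0 to 27 calls. Where this leaves 1 sgGFP or sgKif3a library, that library is assumed to vary like the other groups. Between sgOfd1 and sgKif3a, 15 genes were called, against 23 with filterByExpr, 80 without a filter and 90 in DESeq2. Scaling by library totals moved the median of all genes by 0.03 on the log2 scale, and the share of called genes that were higher was then 56.6% in sgOfd1 and 53.8% in sgKif3a, against 45.8% and 46.1% with TMM. The replicate numbers share no stated origin. Deviations of same-numbered libraries from their group means correlated by 0.12 and 0.15 (sgOfd1 and sgGFP), 0.0045 (sgKif3a and sgGFP) and 0.32 and 0.26 (sgOfd1 and sgKif3a). In a group of 2 libraries the deviations mirror each other, so the pairs of sgKif3a and sgGFP must give the same value. With the replicate block 3575, 3712 and 177 genes were called, and 12 members in each comparison with sgGFP. The members that the block added in sgOfd1 were Cdh1, Cdh10, Cdh24 and Pcdhgc3. Cdh1 passed the threshold with the block and without sgGFP replicate 2, and in sgKif3a also without a filter, and Cdh24 passed in sgKif3a with the block, with library totals, without a filter and with only the groups compared. At these depths a member with fewer than 10 counts over all libraries could not be compared.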
